A study of Mus musculus with 6 samples.

Results

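The 9 genes described here encode neurotrophic factors, proteins that keep neurons alive and guide their growth, and astrocytes are among the cells known to make them. They are *Bdnf*, *Gdnf*, *Ntf3*, *Cntf*, *Lif*, *Mdk*, *Ptn*, *Manf* and *Cdnf*, and they were taken by gene symbol from 17193 genes with a value in each of 6 astrocyte libraries. All 9 had a row, and 7 of the 9 had a mean of at least 1 FPKM, a fragment count scaled to the length of the transcript and the depth of the library. The astrocytes were taken from brain tissue of C57BL/6 mice, wild type and 3 months old. One group of 3 libraries came from mock-treated mice, which the study's text calls saline, and the other group of 3 from mice that had received quinpirole, an agonist of the dopamine receptor DRD2. Cells were isolated with magnetic beads against ACSA-2, an astrocyte surface antigen encoded by *Atp1b2*, and poly(A) RNA was sequenced from both ends of each fragment to compare transcription with and without the agonist. The dose and duration of quinpirole in these mice, the brain region, and whether a library was made from a single mouse or a pool were not given in the sources used here, so the p-values measure the spread between libraries, which may be technical.

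These factors belong to separate families that signal through different receptors. The neurotrophins *Bdnf* and *Ntf3* act through Trk receptor kinases, and *Gdnf* acts through a GFRα co-receptor and the kinase RET. *Cntf* and *Lif* are cytokines of the interleukin-6 family that signal through the LIF receptor, the shared subunit encoded by *Il6st* and the transcription factor STAT3. *Mdk* and *Ptn*, which encode midkine and pleiotrophin, are heparin-binding growth factors that bind the receptor phosphatase PTPRZ1, syndecans and LRP1. *Manf* and *Cdnf* encode proteins of the endoplasmic reticulum (ER) that can be secreted and are known to protect dopaminergic neurons. BDNF, GDNF and CNTF were all first studied as survival factors for neurons, GDNF for those of the midbrain in particular, and CNTF is also known to act on astrocytes themselves.

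The depth of the libraries, estimated from the steps of the lowest FPKM values, was 22200000 to 27500000 fragments per library. No 2 libraries of a group differed by as little as sampling noise. *Gfap*, which encodes the astrocyte intermediate filament, and *Aldoc* were the 2 most abundant of 12 astrocyte markers, with mean levels of 528 and 323 FPKM in the mock group. *Atp1b2* had 178 ± 2.94 FPKM (SD, n = 3) in the mock group and 156 ± 7.23 FPKM after quinpirole, with a log2 difference of -0.19 (limma, adjusted p = 0.0382). *Gjb6*, a gap junction gene of astrocytes, was under 1 FPKM, and *Slc1a2*, the main glutamate transporter gene of astrocytes, stood at only 8.10 and 5.82 FPKM in the mock and quinpirole groups. Transcripts used as markers of other cells were also present. The smooth muscle genes *Acta2* and *Tagln* had means of 2690 and 2388 FPKM over the 6 libraries, while *Rgs5*, *Myh11*, *Kcnj8*, *Abcc9* and *Vtn*, 5 of the 8 mural markers, were under 1 FPKM. The mural sum was 4796 to 5129 FPKM in the mock group and 5147 to 5508 FPKM after quinpirole. The summed level of the 10 microglial markers, all of them at 1 FPKM or more, was 555.6 to 578.3 FPKM in the mock group and 588.6 to 631.9 FPKM in the quinpirole group. For oligodendrocyte precursors the sum of 7 markers was 318 to 327.5 FPKM and 342.8 to 367 FPKM, with *Pdgfra*, *Sox10* and *Gpr17* under 1 FPKM. The sum of 10 neuronal markers was 96.99 to 101.8 FPKM and 105.4 to 112.6 FPKM, with 7 of them under 1 FPKM, including *Rbfox3*, *Snap25* and *Syt1*. The fibroblast and meningeal sum over 7 markers, 2 of them under 1 FPKM, was lower after quinpirole, at 101.4 to 113 FPKM against 125.4 to 140.8 FPKM. This sum rests largely on 1 gene, *Col1a1*, with means of 96.5 FPKM in the mock group and 76.1 FPKM after quinpirole. The sums of oligodendrocyte, endothelial and ependymal markers overlapped between the groups, as did the astrocyte sum, which was 1510 to 1673 FPKM and 1499 to 1528 FPKM. The FPKM of all genes summed to 401769 to 413730 in the mock libraries and to 425244 to 437164 in the quinpirole libraries. As a share of this total, the astrocyte sum was lower after quinpirole, at 0.343% to 0.358% against 0.376% to 0.407%, and so were the endothelial, ependymal and fibroblast sums. In a bulk sample, fewer cells of a type and less RNA per cell cannot be told apart.

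The sequence upstream of 3 of the factors is shown. *Ptn* and *Cntf* were abundant and higher in every quinpirole library, and *Lif* was the factor whose window held a match for Nrf2, the transcription factor that the study followed. *Bdnf*, at a lower level, was also higher in every quinpirole library, and its several windows are not shown. The windows are the 250 bases before the annotated start, from RefSeq on GRCm38.p6, read 5′ to 3′ on the strand of the gene. The *Ptn* window lies at chr6:36810180-36810429 (minus strand), the *Cntf* window at chr19:12765633-12765882 (minus strand) and the *Lif* window at chr11:4257318-4257567 (plus strand). Capitals mark matches to the motifs searched on both strands, which were TGACNNNGC for Nrf2, TTCNNNGAA for STAT factors, TGACGTCA for CREB and TGANTCA for AP-1.
Ptn: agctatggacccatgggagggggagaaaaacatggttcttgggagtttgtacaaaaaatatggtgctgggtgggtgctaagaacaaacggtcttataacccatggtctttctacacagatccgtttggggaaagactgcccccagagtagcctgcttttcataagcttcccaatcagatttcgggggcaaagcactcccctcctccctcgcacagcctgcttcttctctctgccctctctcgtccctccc
Cntf: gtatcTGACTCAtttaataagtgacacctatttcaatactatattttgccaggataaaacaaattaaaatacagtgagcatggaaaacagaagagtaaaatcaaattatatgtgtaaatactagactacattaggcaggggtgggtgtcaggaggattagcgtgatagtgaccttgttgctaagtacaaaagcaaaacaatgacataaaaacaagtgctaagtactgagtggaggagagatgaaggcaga
Lif: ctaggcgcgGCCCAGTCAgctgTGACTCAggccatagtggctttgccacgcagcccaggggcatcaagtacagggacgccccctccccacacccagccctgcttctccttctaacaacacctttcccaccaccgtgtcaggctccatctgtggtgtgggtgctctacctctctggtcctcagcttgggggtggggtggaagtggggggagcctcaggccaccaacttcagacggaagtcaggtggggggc
The *Ptn* window held none of the 4 motifs. The *Cntf* window held the AP-1 letters between 245 and 239 bases before the start. The *Lif* window held the AP-1 letters between 228 and 222 bases and the Nrf2 letters, on the other strand, between 241 and 233 bases before the start. Of 32851 windows of this length in the RefSeq table, 10.2% held the Nrf2 letters, 6.75% the AP-1 letters, 7.02% the STAT letters and 1.55% the CREB letters. RefSeq windows were found for 7 of the 9 factors, 15 windows in all. Besides those shown, 1 window of *Bdnf* held the STAT letters and another the AP-1 letters, and the CREB letters were in none. These matches describe the letters in the windows and say nothing of binding.

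The levels of the factors spanned a wide range. The 3 abundant factors were *Manf*, with a mean of 68.0 FPKM over the 6 libraries, *Ptn* with 49.8 FPKM and *Cntf* with 38.9 FPKM. These levels exceeded those of 93.7%, 91.1% and 88.3% of the genes in the tables. *Mdk* followed at 8.34 FPKM, then *Lif* at 3.44 FPKM, *Bdnf* at 2.75 FPKM and *Ntf3* at 1.13 FPKM, while *Gdnf* and *Cdnf* were lowest at 0.434 and 0.392 FPKM. Between neighbours in this order the largest step was that from *Cntf* to *Mdk*, a ratio of 4.67. The level of *Cntf*, and with it this step, is uncertain, because 78.9% of its exonic bases are shared with *Zfp91*, an expressed gene on the same strand. Within 2 families the members stood far apart, since *Ptn* exceeded *Mdk* and *Manf* exceeded *Cdnf* in every library. Library ranges overlapped for *Lif* and *Bdnf* and for *Gdnf* and *Cdnf*, so the order within these pairs was not resolved, and the other 6 of 8 neighbouring pairs did not overlap. Few fragments stood behind the low levels, an estimated 23 to 44 per library for *Cdnf*, 25 to 56 for *Gdnf* and 39 to 63 for *Ntf3*, against 3986 to 4962 for *Ptn*.

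**Figure D1:**
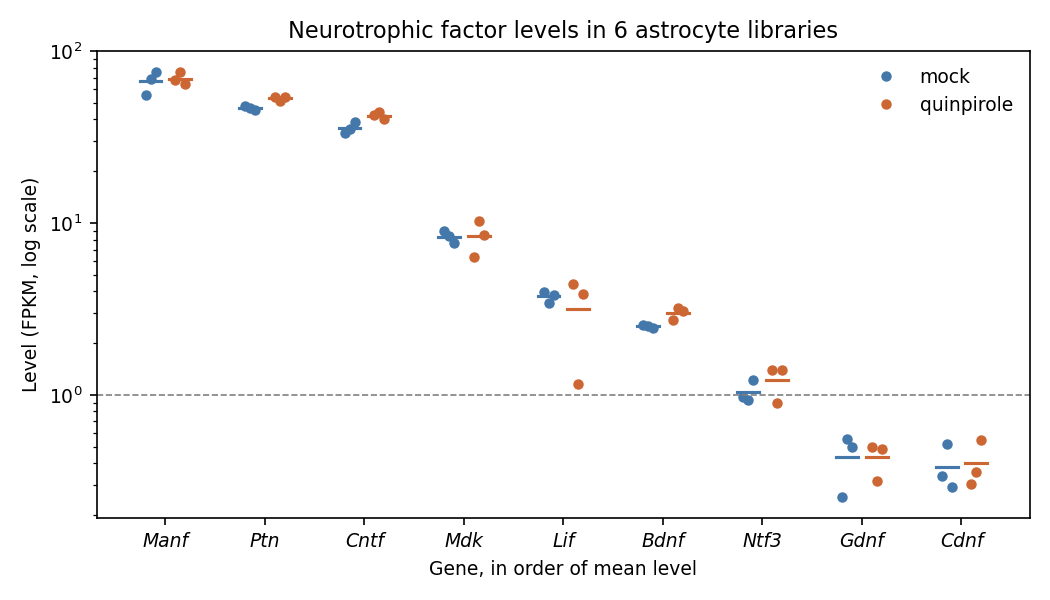
Level of each neurotrophic factor in FPKM on a log axis, with 1 point per library (mock, blue; quinpirole, orange), a short line at each group mean and a dashed line at 1 FPKM. *Manf*, *Ptn* and *Cntf* lie between 33.4 and 75.6 FPKM in all 6 libraries, and *Gdnf* and *Cdnf* lie between 0.256 and 0.553 FPKM.

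After quinpirole, *Ptn* was the factor that passed the test. Of the 7 factors tested, 1 was called higher at an adjusted p under 0.05 and 0 were called lower, while 10.9% of the 12255 tested genes were called, 5.74% higher and 5.18% lower. At an unadjusted p under 0.05 limma gave 3 factors higher, *Ptn*, *Cntf* and *Bdnf*, and 0 lower, where 31.3% of all tested genes passed, 17.3% higher and 13.99% lower. With every library scaled to a common sum of FPKM, 1 factor was higher at this p. Values of the groups did not overlap for *Ptn*, *Cntf* and *Bdnf*, each higher after quinpirole, and 20.03% of all tested genes were separated in that direction. Log2 differences, here always of log2(FPKM + 1) as quinpirole minus mock and therefore understated for weakly expressed genes, were above 0 for 5 of the 7 factors. Their median was 0.12, against 0.015 over all tested genes. *Manf* was among the 5, and its difference turned to -0.02 when every library was scaled to a common sum of FPKM. That scaling also moved the calls over all genes from 704 higher and 635 lower to 219 higher and 1228 lower, and quantile normalization gave 283 higher and 500 lower.

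**Figure D2:**
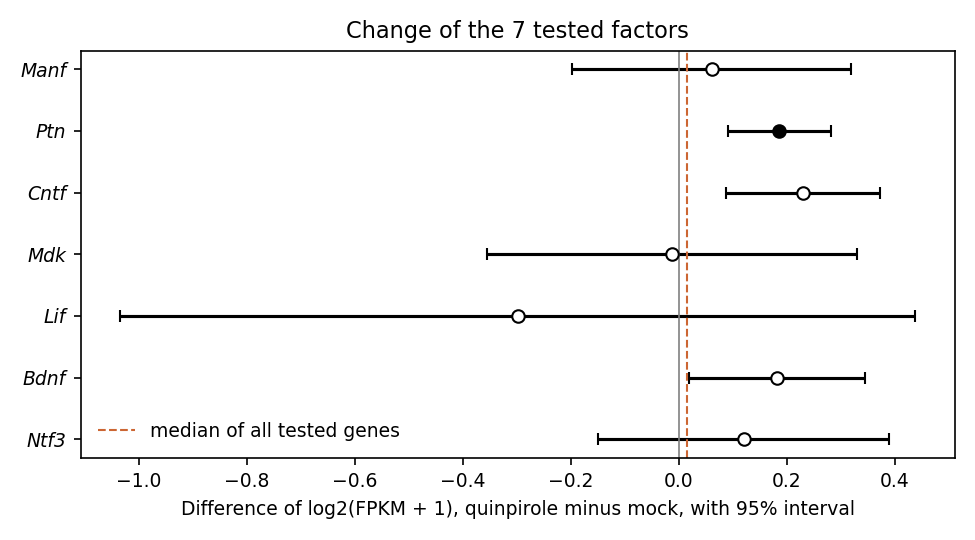
Difference of mean log2(FPKM + 1), quinpirole minus mock, for the 7 factors with a mean of at least 1 FPKM, in order of level; bars are 95% intervals from limma, the filled point marks an adjusted p under 0.05 and the dashed line the median of all tested genes. The intervals of *Ptn* (0.09 to 0.28), *Cntf* (0.09 to 0.37) and *Bdnf* (0.02 to 0.34) lie above 0, and that of *Lif* is the widest, from -1.03 to 0.44.

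*Ptn* (ENSMUSG00000029838, chr6:36714929-36810220 on GRCm38, minus strand) encodes pleiotrophin, a growth factor that binds heparan and chondroitin sulphate chains. Its level was 47.9, 46.7 and 45.1 FPKM in mock libraries 1 to 3 and 54.3, 51.3 and 53.7 FPKM in quinpirole libraries 1 to 3. Every quinpirole library was above every mock library. The means were 46.5 ± 1.37 FPKM and 53.1 ± 1.63 FPKM (SD, n = 3 each), a ratio of 1.14, and the log2 difference was 0.19 (SE 0.04, adjusted p = 0.0364 with limma). *Mdk* (ENSMUSG00000027239, chr2:91929805-91932297, minus strand), the gene of the related factor midkine, had 8.94, 8.35 and 7.67 FPKM in the mock group and 6.31, 10.3 and 8.53 FPKM after quinpirole. The quinpirole libraries lay on both sides of the mock libraries. The means were 8.32 ± 0.635 FPKM and 8.37 ± 1.98 FPKM, with a log2 difference of -0.01 whose 95% interval reached from -0.36 to 0.33 (adjusted p = 0.965).
The call of *Ptn* was lost when any 1 of the 6 libraries was left out, with log2 differences of 0.16 to 0.21 and adjusted p of 0.0607 to 0.115, and after correction for transcript length, which gave 0.14 (adjusted p = 0.116). *Ptn* has 3433 exonic nucleotides, and the 2445 genes with 2514 to 3812 of them had a median log2 difference of 0.06. The microglial, mural, precursor and neuronal marker sums given above were also higher in every quinpirole library, but they rest on a few abundant genes. Within these lists 3 of 10 microglial, 2 of 8 mural, 2 of 7 precursor and 3 of 10 neuronal genes were apart and higher after quinpirole, and 4, 3, 2 and 1 were apart and lower. Of all tested genes, which leave out those under 1 FPKM, 20.03% were apart and higher. The share apart and lower is not given here. As shares of all FPKM in a library, the microglial, mural and precursor sums overlapped between the groups and the neuronal sum stayed apart, at 0.0241% to 0.0246% against 0.0248% to 0.026%. The part of these cells in the values of *Ptn*, *Cntf* and *Bdnf* was not tested.

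Of the receptors and binding partners of midkine and pleiotrophin, 13 of 16 genes were tested and 4 fell after quinpirole, *Lrp1*, *Notch2*, *Ptprs* and *Ptprz1*, while 0 rose. At an unadjusted p under 0.05 limma gave 2 higher and 4 lower, against 17.3% and 13.99% of all tested genes. A common sum of FPKM gave 0 higher and 6 lower, but also moved the adjusted calls over all genes to 219 higher and 1228 lower. As designed, the background of lower calls at the adjusted threshold was 5.18%, and the median difference of the list was -0.02. *Ptprz1*, which encodes the receptor phosphatase bound by both factors, had 33.4, 34.5 and 31.8 FPKM in the mock group and 29.8, 26.7 and 29.3 FPKM after quinpirole, a log2 difference of -0.21 (adjusted p = 0.0493). Every quinpirole library was below every mock library. *Ptprs*, a related phosphatase that binds the same sugar chains, fell from 73.6 ± 2.01 FPKM to 62.2 ± 4.99 FPKM (log2 difference -0.24, adjusted p = 0.0451). *Lrp1*, a large endocytic receptor, fell from 109 ± 13 FPKM to 54.4 ± 6.42 FPKM (-0.995 on the log2 scale, adjusted p = 0.0215), the most negative difference in any of the lists. *Notch2*, a Notch receptor named among the partners of midkine, fell from 28.5 ± 1.26 FPKM to 18.8 ± 1.40 FPKM (-0.58, adjusted p = 0.0215). The 2 other abundant members were *Itgb1*, an integrin subunit gene with 291 and 317 FPKM in the mock and quinpirole groups (0.12, adjusted p = 0.0840), and *Sdc4*, a syndecan gene with 135 and 137 FPKM (0.03, adjusted p = 0.581). *Alk*, the gene of a receptor kinase linked to both factors and named here after its values were seen, had a mean of only 0.068 FPKM.
The 4 genes that fell all have long exonic sequences, from 10782 to 17717 nucleotides, and the 2445 longest genes (7766 nucleotides or more) had a median log2 difference of -0.107. With the length correction, the difference was -0.05 for *Ptprz1* (adjusted p = 0.45) and -0.07 for *Ptprs* (adjusted p = 0.50), while *Lrp1* and *Notch2* kept their calls at -0.79 and -0.47 (adjusted p = 0.0219 each).

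*Cntf* (ENSMUSG00000079415, chr19:12763660-12765632, minus strand) encodes ciliary neurotrophic factor, a cytokine without a secretion signal that astrocytes hold in the cytoplasm. Its level was 33.4, 35.3 and 38.6 FPKM in mock libraries 1 to 3 and 42.2, 44.0 and 40.0 FPKM in quinpirole libraries 1 to 3. The groups did not overlap. The means were 35.8 ± 2.62 FPKM and 42.1 ± 2.0 FPKM, a ratio of 1.18, and the log2 difference of 0.23 (SE 0.06) had an adjusted p of 0.0533, just short of the threshold. Without mock library 3 the adjusted p was 0.0368 with a difference of 0.28, and after the length correction the difference was 0.08 (adjusted p = 0.265). *Cntf* has a single annotated transcript that shares 847 exonic bases, 78.9% of its exons, with *Zfp91*, a zinc finger gene on the same strand, so the assignment of fragments between these genes is uncertain. *Zfp91* itself had 24.7, 24.6 and 23.3 FPKM in the mock group and 25.4, 23.3 and 24.7 FPKM after quinpirole. The ratio of *Cntf* to *Zfp91* overlapped between the groups, at 1.35, 1.44 and 1.66 against 1.66, 1.89 and 1.62.

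*Lif* (ENSMUSG00000034394, chr11:4257557-4272514, plus strand) encodes leukaemia inhibitory factor, a cytokine that astrocytes and other cells release after injury. Its level was 3.96, 3.42 and 3.83 FPKM in the mock group and 4.41, 1.16 and 3.88 FPKM after quinpirole. Quinpirole library 2 stood below the other 5 libraries, and the remaining values lay close together. The means were 3.74 ± 0.277 FPKM and 3.15 ± 1.74 FPKM, and the log2 difference was -0.30 (SE 0.31, 95% interval -1.03 to 0.44, adjusted p = 0.552). Leaving out quinpirole library 2 turned the difference to 0.12. The gene has 3 annotated transcripts of 390 to 4026 nucleotides, and an estimated 128 to 510 fragments per library lay behind the values.

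**Figure D3:**
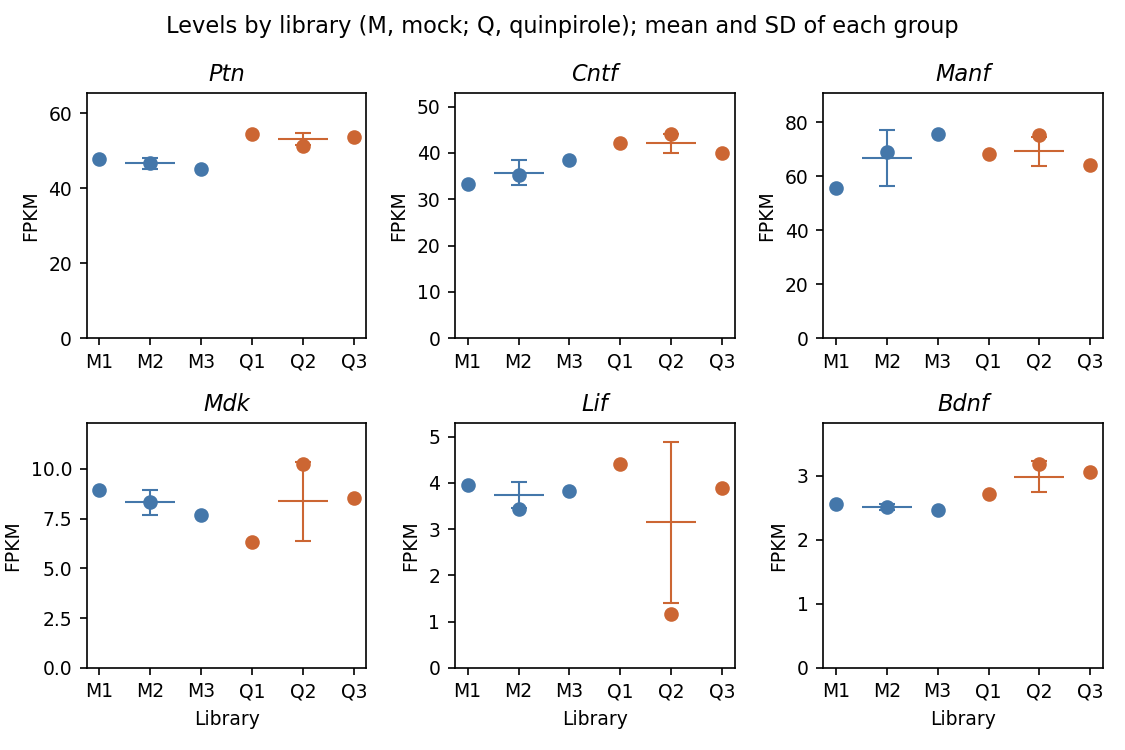
FPKM in each library (M1 to M3, mock; Q1 to Q3, quinpirole) for the 6 factors with the highest mean level, on axes that start at 0; horizontal lines are group means and error bars SD (n = 3). The groups are apart for *Ptn*, *Cntf* and *Bdnf*, overlap for *Manf* and *Mdk*, and overlap for *Lif* with quinpirole library 2 at 1.16 FPKM.

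The receptors and signalling genes of CNTF and LIF were all expressed, and all 14 were tested. *Ptpn11*, *Il6ra* and *Osmr* fell and 0 rose, with a median log2 difference of -0.08 over the list. Of all tested genes 5.18% were called lower and 5.74% higher. At an unadjusted p under 0.05, which 31.3% of all tested genes passed, limma gave 1 higher and 5 lower. *Ptpn11*, the gene of a phosphatase that carries cytokine receptor signals, fell from 72.9 ± 1.92 FPKM to 64.9 ± 1.63 FPKM (-0.17, adjusted p = 0.0389). *Il6ra*, the interleukin-6 receptor gene, fell from 14.1 to 11.9 FPKM (-0.22, adjusted p = 0.0438), and *Osmr*, the oncostatin M receptor gene, from 19.4 to 17.1 FPKM (-0.17, adjusted p = 0.0448). *Osmr* has 12113 exonic nucleotides, *Il6ra* 8642 and *Ptpn11* 7492, and each lost its call with the length correction. The corrected limma differences were -0.04 for *Osmr* (adjusted p = 0.522), -0.14 for *Il6ra* (adjusted p = 0.109) and -0.11 for *Ptpn11* (adjusted p = 0.0848). *Stat3* had 65.2 ± 9.80 FPKM and 60.9 ± 8.11 FPKM (-0.09, adjusted p = 0.632). The receptor subunits specific to CNTF and LIF are named here after their values were seen. *Cntfr* stood at 5.48 and 5.65 FPKM in the mock and quinpirole groups (0.04, adjusted p = 0.667) and *Lifr* at 2.50 and 2.27 FPKM (-0.10, adjusted p = 0.413). *Il6st*, the gene of the shared subunit, varied more, with 49.5, 35.2 and 46.3 FPKM in the mock group and 27.6, 39.3 and 26.7 FPKM after quinpirole. These groups overlapped through mock library 2 and quinpirole library 2, and the difference of -0.48 did not pass the test (adjusted p = 0.104).

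*Bdnf* (ENSMUSG00000048482, chr2:109674700-109727007, plus strand), the gene of brain-derived neurotrophic factor, is transcribed mainly by neurons and more weakly by astrocytes. Its level was 2.55, 2.51 and 2.46 FPKM in the mock group and 2.72, 3.18 and 3.05 FPKM after quinpirole. The groups did not overlap, and the mock libraries differed little from each other. The means were 2.51 ± 0.047 FPKM and 2.98 ± 0.24 FPKM, a ratio of 1.19, with a log2 difference of 0.18 (SE 0.07) that did not pass the test (adjusted p = 0.126). *Bdnf* has 11 annotated transcripts, and 14.4% of its exonic bases overlap the antisense gene *Gm45346*, from which its fragments could not be separated because the library kit did not mark strand. *Ntf3* (ENSMUSG00000049107, chr6:126101412-126166910, minus strand), the neurotrophin-3 gene, had 0.966, 0.937 and 1.22 FPKM in the mock group and 1.39, 0.897 and 1.40 FPKM after quinpirole. The groups overlapped, and the log2 difference was 0.12 (95% interval -0.15 to 0.39, adjusted p = 0.512). *Gdnf* (ENSMUSG00000022144, chr15:7810846-7837575, plus strand), the gene of glial cell line-derived neurotrophic factor, had 0.256, 0.553 and 0.494 FPKM in the mock group and 0.50, 0.316 and 0.485 FPKM after quinpirole. The means of 0.435 ± 0.158 FPKM and 0.434 ± 0.102 FPKM gave a two-sided exact permutation p of 0.9, where 0.1 is the smallest that 3 against 3 libraries allow. With that floor no difference in *Gdnf*, of any size, could have had a p under 0.05 by permutation. At these depths a difference in *Ntf3* smaller than the spread between libraries was not detectable.

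Of 13 receptors of neurotrophins and GDNF-type factors, 12 had a row and 7 were tested. *Ntrk2*, the BDNF receptor gene and the most abundant of the list, was called lower and 0 were called higher (at an unadjusted p under 0.05, which 31.3% of all tested genes passed, 3 and 0 of the 7 with limma), and the median difference was -0.11. The adjusted threshold called 5.18% of all tested genes lower and 5.74% higher. *Ntrk2* had 83.4, 89.1 and 85.7 FPKM in the mock group and 76.7, 74.2 and 78.3 FPKM after quinpirole. The groups did not overlap, with a log2 difference of -0.17 (adjusted p = 0.0415). It has 19292 exonic nucleotides, and with the length correction its difference turned to 0.05 (adjusted p = 0.522). *Ncam1*, which encodes an adhesion molecule that can act as a GDNF receptor, had 50.8 ± 3.70 FPKM and 42.9 ± 3.28 FPKM (-0.24, adjusted p = 0.0680), and *Sort1*, the gene of the proneurotrophin receptor sortilin, had 35.6 ± 1.27 FPKM and 32.5 ± 0.731 FPKM (-0.13, adjusted p = 0.0903). The receptors that bind these factors directly differed in level, and the next values were chosen after they were seen. *Gfra1*, the GDNF co-receptor gene, stood at 14.1 FPKM in the mock group and 14.0 FPKM after quinpirole, whereas *Ret*, the kinase it works with, stood at 0.204 and 0.164 FPKM. *Ntrk3*, the receptor gene of neurotrophin-3, had 2.12 and 2.13 FPKM. Among 13 genes for processing of proneurotrophins, 12 had a row, 6 were tested, and 0 rose and 0 fell, also at an unadjusted p under 0.05 in limma. Scaling to a common sum of FPKM gave 0 higher and 3 lower at that p. It also moved the adjusted calls over all genes to 219 higher and 1228 lower. *Plat*, the tissue plasminogen activator gene, had 109 and 106 FPKM (-0.03, adjusted p = 0.538). The proprotein convertase genes *Furin* and *Pcsk6* had 36.6 and 37.4 FPKM (0.04, adjusted p = 0.800) and 23.7 and 25.4 FPKM (0.10, adjusted p = 0.383).

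*Manf* (ENSMUSG00000032575, chr9:106838312-106891979, minus strand) encodes mesencephalic astrocyte-derived neurotrophic factor, whose transcription is known to rise under ER stress. It had 55.5, 69.1 and 75.6 FPKM in the mock group and 68.2, 75.1 and 64.4 FPKM after quinpirole. Mock library 1 was the lowest of the 6, and the groups overlapped. The means were 66.7 ± 10.2 FPKM and 69.2 ± 5.45 FPKM, and the log2 difference of 0.06 had a 95% interval from -0.20 to 0.32 (adjusted p = 0.740). The genes *Dcaf1*, *Rbm15b* and *4930524O07Rik* overlap 4.14%, 0.397% and 4.71% of its exonic bases. *Cdnf* (ENSMUSG00000039496, chr2:3513030-3526376, plus strand), the gene of the related dopamine neurotrophic factor, had 0.336, 0.519 and 0.289 FPKM in the mock group and 0.301, 0.356 and 0.549 FPKM after quinpirole. The groups overlapped, with means of 0.381 ± 0.122 FPKM and 0.402 ± 0.130 FPKM and a two-sided exact permutation p of 0.7. Of 26 genes for ER chaperones and the unfolded protein response, all were tested, 1 rose and 0 fell, with a median difference of 0.03. Over all tested genes 5.74% rose and 5.18% fell. At an unadjusted p under 0.05 limma gave 7 higher and 3 lower, a share of the 26 near the 31.3% of all tested genes. The direction of this count turned with the scaling, to 0 higher and 8 lower with a common sum of FPKM and to 2 higher and 7 lower with quantile normalization. The adjusted calls over all genes moved as well, to 219 higher and 1228 lower and to 283 higher and 500 lower. *Pdia3*, a disulphide isomerase gene, rose from 164 ± 4.33 FPKM to 183 ± 1.75 FPKM (0.16, adjusted p = 0.0376). Its call was lost with a common sum of FPKM, quantile normalization or the length correction, and its lowest difference among the alternative settings was 0.04. The most abundant genes of this list did not pass the test. *Calr*, the calreticulin gene, had 324 and 348 FPKM (0.10, adjusted p = 0.0879), *Hspa5*, the gene of the chaperone BiP to which MANF binds, had 232 and 230 FPKM (-0.02, adjusted p = 0.777), and *P4hb*, another disulphide isomerase gene, had 171 and 186 FPKM (0.12, adjusted p = 0.0559).

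In a further list of 17 neurotrophic factors, 11 were tested, 0 rose and 1 fell (at an unadjusted p under 0.05, 1 and 1 with limma, and 0 and 3 with a common sum of FPKM), with a median difference of 0.04. At the adjusted threshold 5.74% of all tested genes rose and 5.18% fell. A common sum of FPKM moved these calls over all genes to 219 higher and 1228 lower. *Nrg1*, the neuregulin gene, fell from 10.3 ± 0.181 FPKM to 8.98 ± 0.077 FPKM (-0.18, adjusted p = 0.0464), and its difference was -0.08 with the length correction (adjusted p = 0.307). The most abundant was *Psap*, whose product prosaposin is both a lysosomal precursor and a secreted trophic protein, with 928 and 906 FPKM (-0.03, adjusted p = 0.530). *Nenf*, the neudesin gene, had 63.0 and 68.8 FPKM (0.12, adjusted p = 0.219). *Clcf1*, which encodes a cytokine that acts through the CNTF receptor, had 60.9 ± 4.04 FPKM and 63.6 ± 1.16 FPKM (0.06, adjusted p = 0.440). Over all 6 lists, 77 of 99 genes were tested, 1 rose and 9 fell, where 5.74% of all tested genes rose and 5.18% fell. At an unadjusted p under 0.05 limma gave 11 higher and 16 lower, against 17.3% and 13.99% of all tested genes. With a common sum of FPKM it gave 1 higher and 30 lower, where 3821 of all tested genes had such a p. These 3821 are not split by direction here. Of the 10 calls at the adjusted threshold, 0 remained without mock library 1, mock library 2 or quinpirole library 1. *Lrp1* and *Notch2* remained without quinpirole library 2, and with them *Ptprs* without quinpirole library 3. Without mock library 3, 5 of the 10 remained, *Lrp1*, *Notch2*, *Il6ra*, *Pdia3* and *Ptpn11*, and *Socs1*, a feedback inhibitor gene of cytokine signalling named here after its values were seen, was called as well. With the length correction, 2 of the 10 remained past the threshold, *Lrp1* and *Notch2*, and 1, *Ntrk2*, changed sign.

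**Figure D4:**
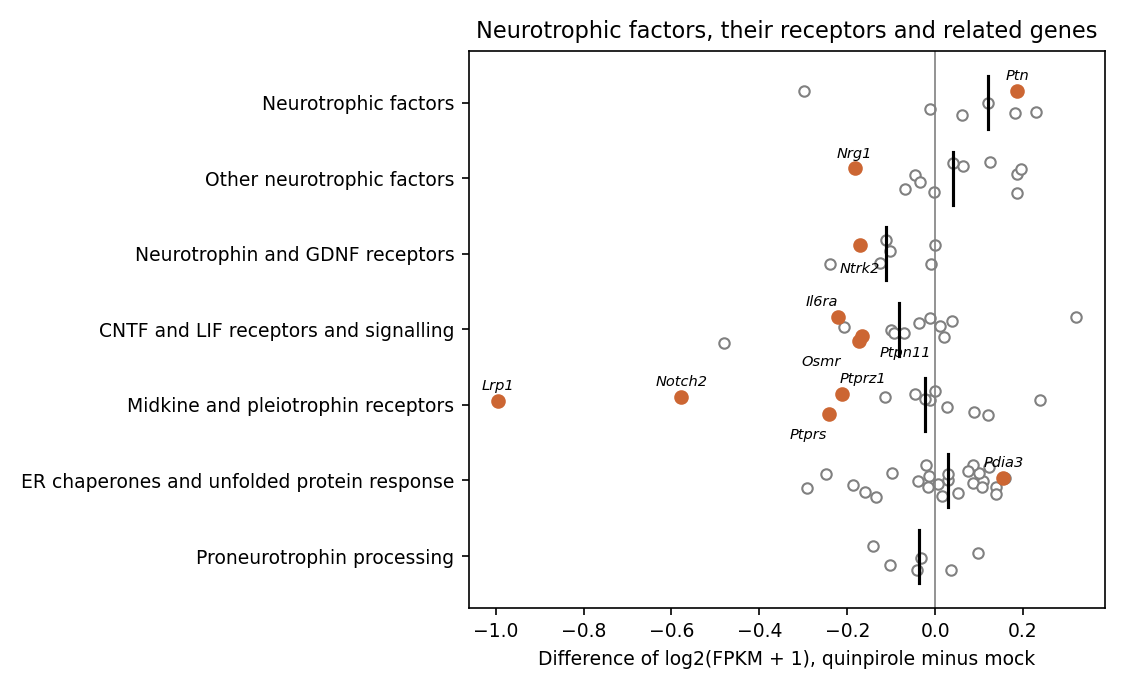
Difference of log2(FPKM + 1), quinpirole minus mock, for each tested gene of the 9 neurotrophic factors and of 6 lists of related genes. Filled named points have an adjusted p under 0.05, open points do not, vertical placement within a row carries no value and black bars are list medians; *Lrp1* lies farthest to the left at -0.995 and *Ptn* is the named point farthest to the right at 0.19.

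The genes whose pattern was most like that of *Ptn*, by Pearson's r of log2(FPKM + 1) over the 6 libraries, were *Harbi1* (r = 0.9989), *Ccnb1* (r = 0.9979) and *Hmgb3* (r = 0.9933). Among 12216 genes compared, 357 had an r of at least 0.9, and all of these points share the same 6 libraries. *Ccnb1*, the cyclin B1 gene, had 22.8, 22.03 and 21.5 FPKM in the mock group and 26.6, 24.6 and 26.0 FPKM after quinpirole, the same order of libraries within each group as *Ptn*. *Hmgb3*, which encodes a chromatin protein, had 13.9, 13.2 and 12.3 FPKM and 17.1, 15.6 and 16.3 FPKM.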

How the data were processed

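RNA sequencing of astrocytes was analysed in 3 mock and 3 quinpirole libraries, grouped by the treatment given in the sample labels. The authors prepared poly(A) libraries with a NEBNext Ultra kit, sequenced them on an Illumina HiSeq platform in paired-end mode, trimmed adaptors, discarded reads of low quality, and aligned the remainder with TopHat2 to GRCm38 (per the submitters' processing notes), allowing at most 1 mismatch. The authors deposited FPKM values for 17193 Ensembl genes in each library. The TopHat2 version, the annotation and the program that computed FPKM are not given in the sources used here. FPKM divides by transcript length and depth. This does not remove differences in RNA quality or composition between libraries, and those of RNA quality can shift genes with their length. No counts were available to the tests, and counting error was judged from estimated fragments.

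Identifiers were matched to symbols (17090 of 17193), and positions, lengths and overlaps came from GENCODE M21 (GRCm38). The deposited values may rest on another annotation. Depth was estimated from the low FPKM values of 1254 genes with 1 transcript and at least 2000 exonic nucleotides, and 54.4% to 64.7% of these values were whole fragments to a tolerance of 0.1, where chance gives 20%. The 12255 genes with a mean of at least 1 FPKM were tested on log2(FPKM + 1) with limma 3.58.1 in R 4.3.3 (lmFit, eBayes with trend, two-sided, Benjamini-Hochberg over all tested genes, threshold 0.05). *Gdnf* and *Cdnf*, below this filter, were compared by exact permutation of the libraries, which can give no p under 0.1 and so could call neither. The script was tested on simulated data. Tables and figures were made with Python 3.11.15 (scipy 1.17.1, pandas 2.3.3, matplotlib 3.10.9).

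The factors and gene lists were chosen with earlier results of these data known. Named from each list were the 3 genes with the highest mean FPKM and up to 4 called genes with the smallest p, from the marker lists the isolation antigen, the 2 most abundant genes and those a result turned on, and for each factor past the threshold the 3 genes most correlated with it. Alternatives were no filter or one of 5 FPKM, a pseudocount of 0.1, 3 other scalings, loess corrections (span 0.3) for exonic length or GC content, other variance models, a replicate block and the omission of each library. *Gfra3*, *Mmp7*, *Opalin* and *Lhfpl3* were not analysed here, and some genes of the lists are not reported here.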

Additional observations from a re-analysis of the deposited data

How the results depend on the processing

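The order of the factors by level was the same with median ratio scaling, with a common sum of FPKM and without each single library. With single libraries left out, 6 to 7 neighbouring pairs were apart. Both scalings multiply all genes of a library alike, so they cannot change the order within a library. No length or GC alternative was run for the order. Of 136 alternative values for the 9 factors, 106 kept their direction and side of the threshold, 12 lost the call, 3 gained it and 15 turned direction, and the cause was not tested. The number of factors called was 0 with no filter, a common sum of FPKM, quantile normalization, the length correction or no variance trend, 2 with a minimum mean of 5 FPKM or robust estimation, and 0 to 1 with 1 library left out. Where it was 0, limma gave 1 to 3 factors at an unadjusted p under 0.05. All 12 losses concerned *Ptn*, whose limma log2 difference was 0.19 with no filter (adjusted p = 0.050, just above the threshold), 0.11 with a common sum (adjusted p = 0.194), 0.14 with quantile normalization (adjusted p = 0.103), 0.14 with the length correction (adjusted p = 0.116), 0.19 with no trend (adjusted p = 0.0607) and 0.16 to 0.21 without single libraries (adjusted p = 0.0607 to 0.115). In the same limma fits *Cntf* passed with a minimum of 5 FPKM (0.23, adjusted p = 0.0464), with robust estimation (0.23, adjusted p = 0.0448) and without mock library 3, within a range of 0.18 to 0.28 without single libraries (adjusted p = 0.0368 to 0.15). The genes called over the whole table numbered 633 with no filter, 783 with quantile normalization, 511 with the length correction, 714 with no trend and 3 to 1215 without single libraries, where 2891 to 3920 had an unadjusted p under 0.05. Called list genes, 10 as designed, numbered 2, 3 and 2 with no filter, the length correction and no trend, and 0 to 6 without single libraries.

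Directions turned for factors and list genes that had not passed the test, and for *Ntrk2*, whose difference was 0.0483 with the length correction. With a common sum the differences were -0.0198 for *Manf*, -0.0305 for *Gdnf*, -0.0032 for *Cdnf*, -0.0177 for *Clcf1*, -0.0542 for *Sdc4* and -0.0444 for *Furin*. With quantile normalization they were 0.0021 for *Mdk*, -0.0703 for *Sdc4*, -0.0292 for *Calr* and -0.0057 for *Furin*, with the length correction -0.0277 for *Nenf* and -0.0527 for *Sdc4*, and with median ratio scaling -0.00093 for *Gdnf*. Without single libraries the differences ranged from -0.54 to 0.12 for *Lif*, -0.16 to 0.16 for *Mdk*, -0.0641 to 0.16 for *Manf*, -0.0904 to 0.0631 for *Gdnf*, -0.0528 to 0.0917 for *Cdnf*, -0.20 to 0.0249 for *Stat3* and -0.0562 to 0.0994 for *Furin*. No length, GC, quantile, block or variance alternative was run for *Gdnf* and *Cdnf*, which are below the filter, and *Lif*, *Bdnf* and *Ntf3* have no value at a minimum of 5 FPKM.

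Libraries of the same number showed no shared deviation, but so few pairs cannot settle whether they were prepared together. Deviations from the group means correlated at -0.103 to 0.026 between libraries of the same number and at -0.097 to 0.155 between libraries of different numbers. With a replicate block 2 genes were called, with 3308 at an unadjusted p under 0.05, and 0 of the factors and 0 of the list genes were among the called, where limma gave 2 factors and 29 list genes at an unadjusted p under 0.05. The difference of *Ptn* under the block is 0.19 by construction, since a block cannot move the group means of this balanced design, and its call was lost (limma, adjusted p = 0.0941). *Cntf* had a limma adjusted p of 0.112.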

Other observations

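Ratios between a factor and a partner within the same library are given here as values, without a test, since they were chosen after the levels were seen. The ratio of *Ptn* to *Ptprz1*, the ligand to its receptor phosphatase, was 1.43, 1.35 and 1.42 in the mock libraries and 1.82, 1.92 and 1.83 in the quinpirole libraries. All 3 quinpirole ratios were above all 3 mock ratios. This separation, and that of the next ratio, was fixed by the levels and adds nothing to them. *Ptn* was higher in every quinpirole library, and *Ptprz1* and *Ptprs* were lower in every one. The ratio of *Ptn* to *Ptprs* was also apart, at 0.663, 0.641 and 0.594 against 0.890, 0.885 and 0.794. *Ptprz1* has 14245 and *Ptprs* 14990 exonic nucleotides, against 3433 for *Ptn*, and the part of length in these ratios was not tested. The ratio of *Ptn* to *Sdc4*, a gene of 2547 exonic nucleotides, was apart as well but by less, with means of 0.346 and 0.387. *Ptn* to *Mdk* and *Manf* to *Cdnf*, the ratios within a family, overlapped between the groups.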
